A study of Mus musculus with 4 samples.

Results

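The immunoglobulin variable and joining segments were examined in RNA sequencing of cultured leukaemic spleen cells. They were taken by name, as rows of the gene table that begin with Ighv, Ighj, Igkv, Igkj, Iglv or Iglj and a number and that were above 0 in at least 1 of 4 samples. Of 17 such rows 15 qualified, among 28074 gene symbols in all. They were 6 variable segments (2 heavy chain, 4 kappa) and 9 joining segments (4 heavy chain, 5 kappa). The 2 other rows, Ighv13-1 and Igkv13-87, were at 0 in all 4 samples, and the members just inside the threshold, Ighv13-2 and Igkv4-69, peaked at 3.91 and 4.67 FPKM. The segments were thus chosen by their name and by a measured value, an FPKM above 0, so their detection is a description and not a finding. FPKM is the length-scaled expression level of the deposited table.

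The cells came from 2 mice, 4050 and 4182, labelled Dnmt3afl/fl, Flt3ITD/ITD, Mx1Cre, a genotype that control and R848 samples share. Another part of the labels gives Dnmt3a+/-, and the genotype was not resolved here. Mx1Cre is a Cre recombinase driven by an interferon-inducible promoter, and the sources used here do not give the ages of the mice. Thawed splenocytes were rested 24 hours with 20% serum and the cytokines SCF (60 ng/ml), IL3 and IL6 (both 20 ng/ml). Each mouse gave 1 control sample, which received vehicle, and 1 sample that received R848 at 10 µg/ml, both kept 3 days. R848 (resiquimod) is an agonist of the RNA sensors TLR7 and TLR8, and the study set out to find the expression changes it brings in these cells. The labels name no sort for leukaemic cells. Early myeloid granule genes were abundant in every sample, with Mpo, myeloperoxidase, at 1475 and 1533 FPKM in the controls of mice 4050 and 4182 and at 1281 and 1052 FPKM in their R848 samples. The replicates are separate mice, and all p-values rest on 2 samples a group.

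An antibody chain is encoded by segments that developing B cells join in their DNA. A heavy chain exon is assembled from a variable, a diversity and a joining segment, and a kappa chain exon from a variable and a joining segment. RNA splicing then connects the exon to a constant region such as Ighm or Igkc. Variable segments encode most of the antigen-binding domain, and a joining segment encodes its last strand. The enzyme that cuts the DNA, RAG1 with RAG2, recognises a heptamer and a nonamer beside each segment. Myeloid cells keep these loci in germline form as a rule.

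The joining segments are shown first because their length sets how their values can be read. The sequences are GENCODE M21 transcripts on GRCm38, written 5′ to 3′ on the coding strand. Capitals mark the codons of the conserved glycine motif, searched on both strands. In heavy chain segments it was tryptophan, glycine, any residue and glycine (codons TGG, GGN, NNN and GG), and in kappa segments phenylalanine took the place of tryptophan (codons TTN, GGN, NNN and GG).
Ighj1 (chr12:113429781-113429833, minus strand): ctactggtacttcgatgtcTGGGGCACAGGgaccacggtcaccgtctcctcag
Ighj3 (chr12:113429085-113429132, minus strand): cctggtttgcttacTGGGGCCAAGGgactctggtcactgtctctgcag
Ighj4 (chr12:113428514-113428567, minus strand): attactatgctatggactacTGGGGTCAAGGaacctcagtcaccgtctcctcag
Igkj1 (chr6:70722562-70722599, plus strand): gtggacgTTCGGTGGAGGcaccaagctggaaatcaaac
Igkj2 (chr6:70722916-70722954, plus strand): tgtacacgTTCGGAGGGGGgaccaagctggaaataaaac
Igkj3 (chr6:70723223-70723260, plus strand): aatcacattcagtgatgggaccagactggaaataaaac
Igkj4 (chr6:70723548-70723585, plus strand): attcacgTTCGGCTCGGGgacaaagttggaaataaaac
Igkj5 (chr6:70723886-70723923, plus strand): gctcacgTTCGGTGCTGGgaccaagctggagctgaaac

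All of these except Igkj3 hold their motif, as does Ighj2. Igkj3, which is regarded as non-functional in the mouse, does not hold these letters in this window. By comparison, 1.79% of 38-base windows and 2.25% of 48-base windows from the start of RefSeq promoter regions (GRCm38.p6) hold the kappa and the heavy chain motif. The segments are 38 to 54 bases long, and the reads were 150 bases.

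Ighj2 has 2 annotated transcripts, shown because they measure different DNA. The first lies before the joining segment and overlaps it by 2 bases. Its capitals mark the recombination signal nonamer GGTTTTTGT, which 0.089% of 54-base promoter windows hold on either strand. The heptamer CACAGTG was not found in it on either strand. The second is the joining segment, with its glycine motif in capitals.
Ighj2, 54 bases (chr12:113429514-113429567, minus strand): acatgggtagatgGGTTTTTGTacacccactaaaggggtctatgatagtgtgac
Ighj2, 48 bases (chr12:113429468-113429515, minus strand): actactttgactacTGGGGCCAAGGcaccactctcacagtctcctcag

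The 6 variable segments are a small part of the loci: the table names 8 variable segments, while GENCODE M21 annotates 346 (183 heavy chain, 160 kappa and 3 lambda). The other segments, and all lambda segments, were not analysed here. Ighv1-73 and Igkv1-115 are annotated as pseudogenes, and Ighv13-2, Igkv19-93, Igkv4-69 and Igkv4-71 as variable genes. They lie from 0.928 to 2.56 Mb away from the first joining segment of their locus. Their transcripts were compared with those of all other genes in words of 31 bases, the default word length of the read assignment program kallisto; the word length the authors used is not given in the sources used here. For Ighv1-73, 183 of 322 words (56.8%) also stood in another gene, and these words came from 46 genes, 44 of them immunoglobulin genes. None of the 46 is a row of the table. The closest was Ighv1-63, with 150 words.

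The 3′ part of both pseudogene transcripts is shown to make clear how much of each row's sequence is its own. Capitals mark bases inside a word that another gene also holds. In the whole transcript that is 336 of 352 bases for Ighv1-73 and 133 of 302 for Igkv1-115. The reading frame of Ighv1-73 from its ATG meets a stop codon, TGA, at base 322.
Ighv1-73, bases 203 to 352 (gene at chr12:115790593-115791027, minus strand): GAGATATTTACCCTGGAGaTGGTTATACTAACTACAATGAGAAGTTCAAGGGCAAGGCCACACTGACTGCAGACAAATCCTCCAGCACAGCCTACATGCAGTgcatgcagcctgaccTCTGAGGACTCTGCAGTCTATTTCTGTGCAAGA
Igkv1-115, bases 103 to 302 (gene at chr6:68161415-68161716, plus strand): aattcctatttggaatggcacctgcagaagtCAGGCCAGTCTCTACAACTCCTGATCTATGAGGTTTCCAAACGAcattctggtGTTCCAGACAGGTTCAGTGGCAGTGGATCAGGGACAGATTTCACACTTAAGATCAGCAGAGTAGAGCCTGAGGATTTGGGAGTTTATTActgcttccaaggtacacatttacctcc

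Igkv1-115 shared 73 of 272 words (26.8%), all of which stand in Igkv1-108. Igkv4-69 shared 159 of 318 words (50.0%) and Igkv4-71 178 of 258 (69.0%), and 120 words were common to the pair. Ighv13-2 and Igkv19-93 shared 0 of 329 and 0 of 314 words. None of the 9 joining segments shared a word with another gene in its first-numbered transcript. For Ighj2 that is the 54-base transcript before the joining segment, and its 48-base transcript was not compared.

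**Figure D1:**
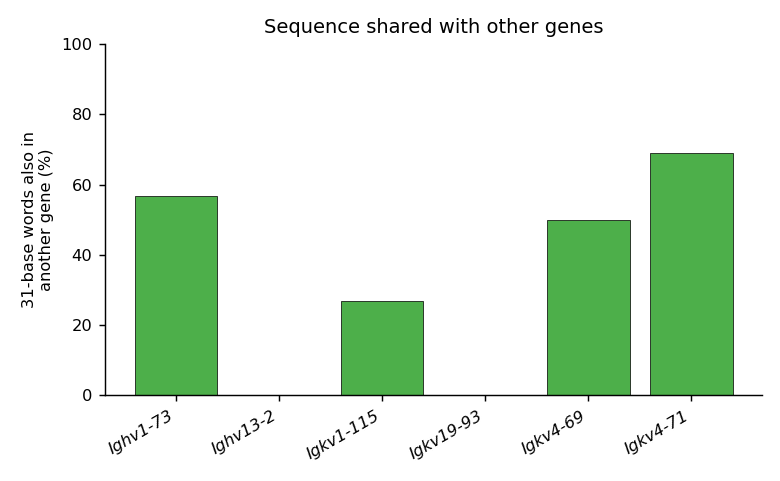
Share of 31-base words of each variable segment's first-numbered transcript (y axis, percent) that also stand in a transcript of another gene in GENCODE M21, with 1 bar per segment. The bars range from 0% for Ighv13-2 and Igkv19-93 to 69.0% for Igkv4-71.

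With R848 all 6 variable segments were higher than in either control sample. Ighv1-73 was the highest, at 10.7 and 4.40 FPKM in the controls of mice 4050 and 4182 and at 99.4 and 43.1 FPKM with R848. It was the only variable segment above 0 in both controls. Its log2(FPKM + 1) difference was 3.06 (SE 0.46, limma adjusted p = 0.0221), with 3.10 in mouse 4050 and 3.03 in mouse 4182. Ighv13-2 was listed at 0 in both controls and at 3.91 and 1.54 FPKM with R848, and it did not pass the test (limma adjusted p = 0.0543). The heavy chain sum was therefore carried by Ighv1-73, which made up 96.2% and 96.5% of it with R848.

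The kappa variable segments were near 0 without R848. Igkv1-115 was at 0 and 0.411 FPKM in control and at 23.6 and 13.3 FPKM with R848, which is 3.98 higher in log2(FPKM + 1) (SE 0.32; limma, adjusted p = 0.00254). Igkv19-93 was at 1.67 and 0 FPKM in control and at 11.1 and 13.6 FPKM with R848, or 3.02 higher on that scale (SE 0.43; limma, adjusted p = 0.02). In these segments no value with R848 fell among the control values. Igkv4-69 was at 0.189 and 0 FPKM in control and at 3.78 and 4.67 FPKM with R848, or 2.25 higher (SE 0.25; limma, adjusted p = 0.00709). Igkv4-71 was listed at 0 in both controls and was at 26.2 and 6.39 FPKM with R848 (limma adjusted p = 0.0194), and no fold is given for it. It passed the rule and the filter on low values only through the R848 samples, so it had to be higher there and its p is no support for a difference. Igkv1-115, Igkv19-93 and Igkv4-69 had control means of 0.205, 0.836 and 0.094 FPKM, below the filter's mean of 1 FPKM. They too passed that filter only through R848, so their p is no support either. Kappa variable use differed between the mice: Igkv4-71 made up 40.5% of the kappa variable sum in mouse 4050 and 16.9% in mouse 4182, while Igkv1-115 made up 36.5% and 35.1%. With 1 R848 sample per mouse this difference was not tested.

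**Figure D2:**
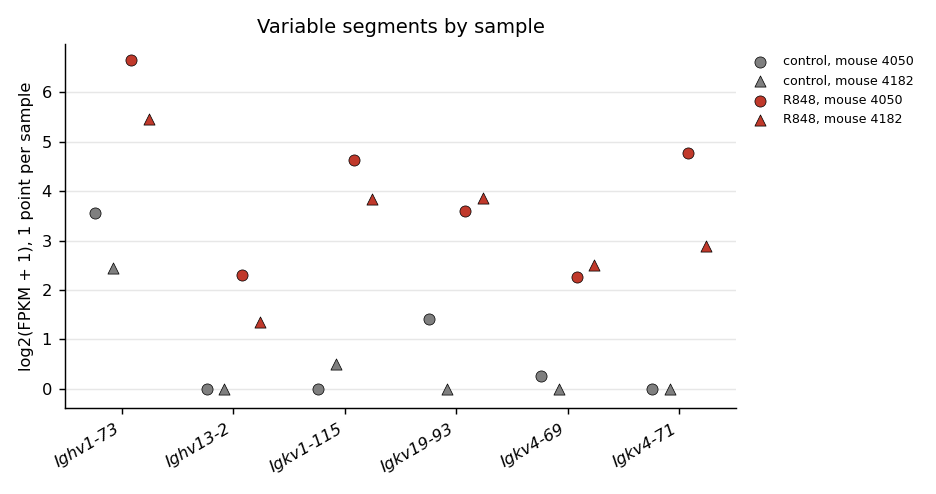
Values of the 6 variable segments on the log2(FPKM + 1) scale (y axis), with 1 point per sample, controls in grey and R848 in red, circles for mouse 4050 and triangles for mouse 4182. Every R848 point lies above both control points of its segment.

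Summed over the locus, the heavy chain variable segments went from 10.7 to 103 FPKM in mouse 4050 and from 4.40 to 44.6 FPKM in mouse 4182. The kappa variable segments went from 1.86 to 64.8 FPKM and from 0.411 to 37.9 FPKM. On the log2(sum + 1) scale the change was 3.12 ± 0.053 for the heavy chain and 4.65 ± 0.186 for kappa (mean ± SD over 2 mice). Without the pseudogene Ighv1-73 the heavy chain change was 1.82, which is that of Ighv13-2 alone. At 0 in both controls, Ighv13-2 is a member only through R848 and had to be higher there. In these bulk samples more cells of a type and more RNA per cell cannot be told apart.

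The joining segments were few and scattered in control. In the control of mouse 4050 Ighj1, Ighj3 and Igkj2 were above 0, at 20.4, 22.2 and 14.3 FPKM, and the other 6 were listed at 0. In the control of mouse 4182 Ighj4 and Igkj4 were above 0, at 11.0 and 38.2 FPKM, and the other 7 were listed at 0. No joining segment was above 0 in both controls. With R848 all 9 were above 0 in both mice.

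The kappa joining segments reached the highest values of any segment. Igkj2 was at 1677 FPKM with R848 in mouse 4050 and at 27.7 FPKM in mouse 4182. Igkj1, listed at 0 in both controls, was at 824 and 11.3 FPKM with R848, and Igkj5, also at 0 in both controls, at 1083 and 51.6 FPKM. In each case mouse 4050 was far above mouse 4182. Igkj3, which lacks the motif shown above, was at 0 in both controls and at 265 and 17.3 FPKM with R848. Igkj4 was at 765 FPKM with R848 in mouse 4050, and in mouse 4182 it went the other way, from 38.2 FPKM in control to 8.50 FPKM. Igkj5 led the kappa joining sum of mouse 4182 with 44.3%, whereas Igkj2 led that of mouse 4050 with 36.3%.

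Among the heavy chain joining segments Ighj1 had the highest value with R848 in both mice. It was at 635 FPKM in mouse 4050 and 59.4 FPKM in mouse 4182. Ighj3 was at 203 and 20.2 FPKM, and the latter lay below the control value of mouse 4050. Ighj4 was at 456 and 17.8 FPKM, above both controls. Ighj2 was listed at 0 in both controls and was at 22.1 and 3.55 FPKM with R848. Ighj1 made up 48.2% and 58.8% of the heavy chain joining sum with R848, in mice 4050 and 4182, and Ighj2 1.68% and 3.52%.

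**Figure D3:**
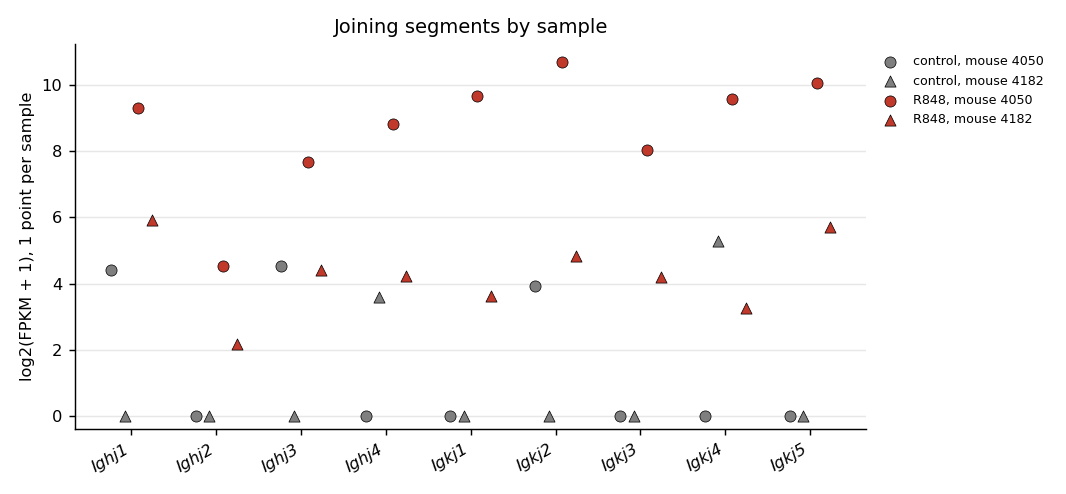
Values of the 9 joining segments on the log2(FPKM + 1) scale (y axis), with 1 point per sample, controls in grey and R848 in red, circles for mouse 4050 and triangles for mouse 4182. The R848 sample of mouse 4050 is the highest for every segment, and the controls are mostly at 0.

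The R848 samples of the mice differed far more in joining segments than in variable segments and constant regions. The kappa joining sum was 4614 FPKM in mouse 4050 and 116 FPKM in mouse 4182, a ratio of 39.6. The kappa variable sum differed by a ratio of 1.71 and the kappa constant region Igkc, at 601 and 507 FPKM, by 1.19. For the heavy chain the ratio was 13.0 for the joining sum, 2.31 for the variable sum and 1.43 for Ighm. On the log2 scale the joining segments had a median of 4.39 (2.63 to 6.49) and the variable segments a median of 1.02 (-0.30 to 2.04). Among the 12566 symbols whose mean reached 1 FPKM and that were above 0 in both R848 samples the median was 0.18 and the middle 95% ran from -0.85 to 1.14. These are values of 1 sample per mouse, with no test.

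**Figure D4:**
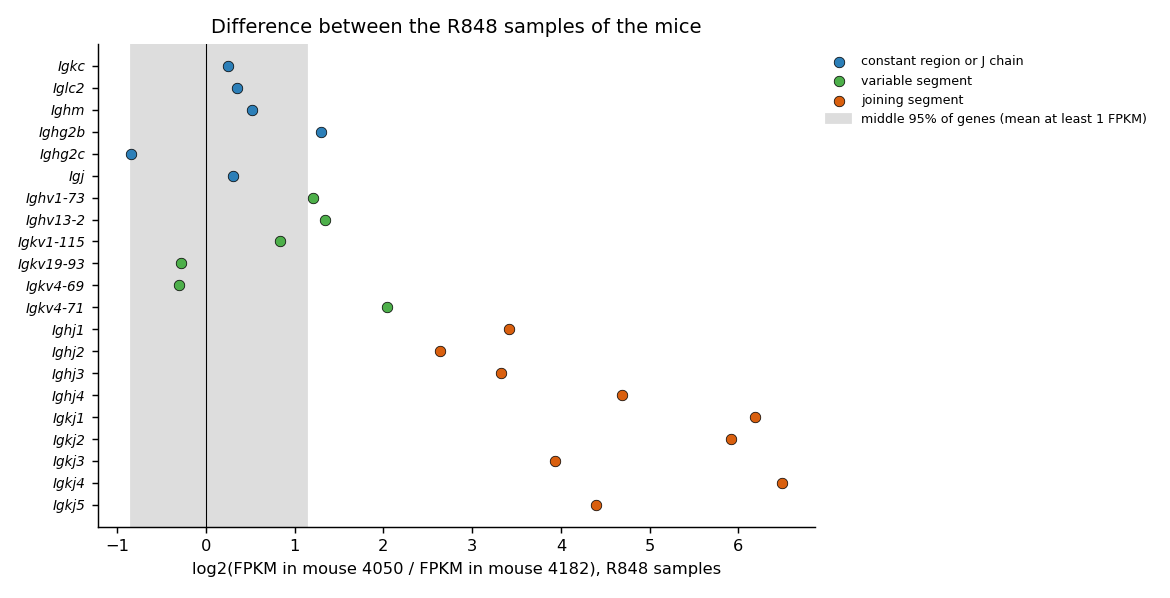
Log2 ratio of FPKM between the R848 samples of mice 4050 and 4182 (x axis) for constant regions and J chain (blue), variable segments (green) and joining segments (orange), with 1 point per gene. The grey band is the middle 95% of genes, and all joining segments lie to its right, from 2.63 to 6.49.

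The scale of the joining rows was examined through rows of equal length. In a length-scaled table rows of 1 length share the worth of 1 read within a sample, so their values should be whole multiples of a common step. Lengths were those of the first-numbered GENCODE transcript, and T cell receptor joining rows were included. In all 10 sets of equal-length rows above 0 in a sample, covering 6 lengths and 21 values, the values were whole multiples of 1 step to within 0.001%. Ighj3 was exactly 23 times the 48-base row Trbj1-1 with R848 in mouse 4050, and 6 times the 48-base rows Trbj1-2 and Trbj2-6 in mouse 4182. Ighj4 in the control of mouse 4182, at 11.0 FPKM, was 2 steps. For Ighj2 the multiples held at 54 bases, the length of the transcript that lies before the joining segment.

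Steps could be compared between the R848 samples for 5 of the 9 joining segments, and in steps these 5 stood higher in mouse 4050 by less than in FPKM. Igkj1 was 14 steps in mouse 4050 and 4 in mouse 4182, a ratio of 3.50 against 72.7 in FPKM. Igkj4 was 13 and 3 steps, a ratio of 4.33 against 90.0 in FPKM. Ighj4 was 62 and 5 steps, Ighj3 23 and 6, and Ighj2 3 and 1, with ratios of 12.4, 3.83 and 3.00 against 25.7, 10.0 and 6.21 in FPKM. The step itself was 58.8 FPKM in mouse 4050 and 2.83 FPKM in mouse 4182 at 38 bases, 8.83 and 3.37 FPKM at 48 bases, and 7.36 and 3.55 FPKM at 54 bases. Each is the largest common step, so the worth of 1 read may be a whole fraction of it. What sets the step was not tested. The T cell receptor joining rows above 0 were also higher in mouse 4050, lying between 7.17 and 46.0 FPKM in mouse 4050 and between 2.94 and 3.93 FPKM in mouse 4182. At the lengths of their first-numbered transcripts, 43, 36 and 42 bases, Igkj2, Igkj3 and Igkj5 had no row of equal length above 0. The transcripts shown above for these segments have 39, 38 and 38 bases, so leaving them out rests on the choice of transcript. Ighj1 had a row of equal length above 0 in the R848 sample of mouse 4050 but not in that of mouse 4182.

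For Ighv1-73 only the ratio to the lowest row of its length was taken, with no search for a smaller common step, and the other variable rows were not examined in this way. At 352 bases, the length of Ighv1-73, the lowest row stood at 0.185 FPKM in the control of mouse 4050, 0.195 FPKM in the control of mouse 4182 and 0.158 FPKM in the R848 sample of mouse 4182. In the latter pair another row was 4.0 times the lowest. Ighv1-73 was 57.9, 22.5 and 272.6 times the lowest row in those samples, and the histone gene row Hist1h2aj was 184.9, 190.2 and 196.4 times. Neither was a whole multiple of the lowest row. In the R848 sample of mouse 4050 no low row of this length was above 0.

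**Figure D5:**
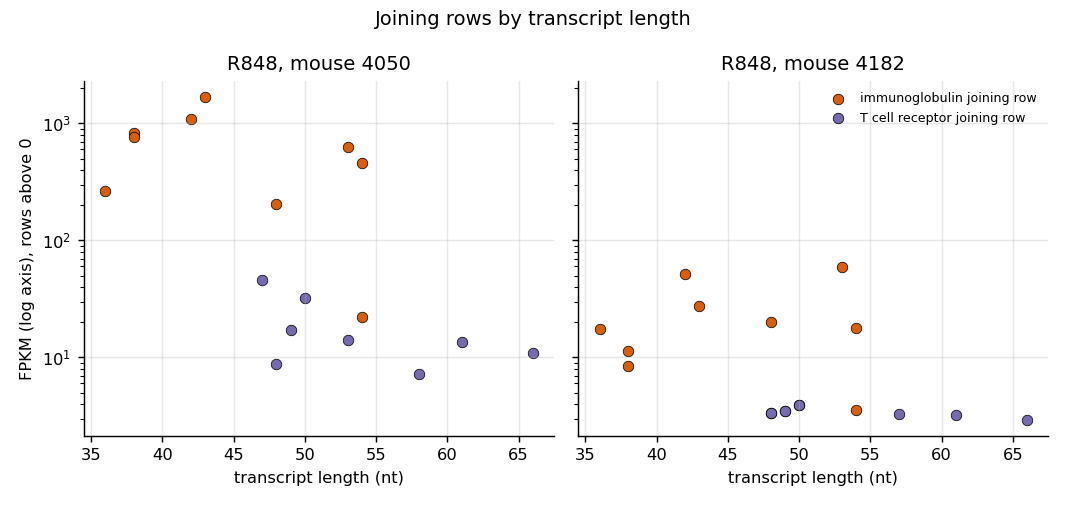
FPKM (y axis, log scale) of immunoglobulin (orange) and T cell receptor (purple) joining rows above 0 against transcript length in bases (x axis), in the R848 samples of mice 4050 (left) and 4182 (right), with 1 point per row. The lowest T cell receptor row lies at 7.17 FPKM in mouse 4050 and at 2.94 FPKM in mouse 4182.

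All 15 segments had a mean of at least 1 FPKM and entered the limma fit over all genes. Of 12612 genes tested, 1.85% were called, 1.47% as higher and 0.381% as lower (adjusted p below 0.05). Among the segments 7 were called higher and 0 lower: 5 of the 6 variable segments and, of the 9 joining segments, Igkj3 and Igkj5 (limma adjusted p = 0.034 and 0.0215). Igkv4-71, Igkj3 and Igkj5, at 0 in both controls, could pass the filter only through R848. So could Igkv1-115, Igkv19-93 and Igkv4-69, whose control means were below 1 FPKM. Of the called segments only Ighv1-73 had a control mean above 1 FPKM, at 7.56 FPKM. The other joining segments had limma adjusted p from 0.0589 for Ighj2 to 0.587 for Igkj4. In 13 of the 15 both R848 samples were above both controls, the exceptions being Ighj3 and Igkj4, against 13.5% of all tested genes and 12.8% of all rows above 0. The median log2 difference of the 15 was 3.83 and that of all tested genes -0.08. The rule kept rows that were above 0 somewhere, so these counts describe the segments and carry no test of them as a list.

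The calls depended on the model. With the mouse as a block, 14 of the 15 segments were called higher by limma, against 3.40% of all genes, and Igkj4 was not (limma adjusted p = 0.296). After quantile normalization or median log ratio scaling 2 calls were left, Igkv1-115 and Igkv4-69, both of which passed the filter only through R848. Without the control sample of mouse 4050 there were 12 calls.

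The partners of the segments moved the same way. Igkc went from 4.90 and 2.73 FPKM in control to 601 and 507 with R848, and Ighm, the constant region of IgM, from 18.4 in each control to 513 and 358. Ighm, Igkc, the lambda constant region Iglc2, the J chain gene Igj, Ighg2b and Ighg2c were all called higher (6 of 6 tested, of 9 in the table from a list of 13). Ighg2b, an IgG constant region, went from 0 and 0.314 to 15.4 and 6.29 FPKM. Ighg2c was at 0 and 0.145 FPKM in control and at 2.26 and 4.05 with R848. Ighg3 was at 0 in both controls and at 0.974 and 1.08 with R848, below the limit for testing, and Ighg1 and Ighe reached at most 0.209 and 0.032 FPKM in any sample.

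Markers of the cells that could carry rearranged segments were set beside them. Of 12 tested genes of the B cell receptor and B lineage list of 16, 5 rose and 0 fell, among them Pou2af1, a B cell coactivator, Ms4a1, which encodes CD20, Cd79a, a signalling chain of the B cell receptor, and Fcrla. Ms4a1 rose from 0.313 and 0.181 to 7.45 and 5.05 FPKM (log2 difference 2.52, limma adjusted p = 0.00553), and Pou2af1 from 0.083 and 0.016 to 4.88 and 5.23 FPKM (2.53, limma adjusted p = 0.00368). The summed level of the 16 was 26.0 and 32.4 FPKM in control and 74.6 and 76.1 FPKM with R848. In the plasma cell list Mzb1, an endoplasmic reticulum cofactor of antibody secretion, rose from 0.365 and 0.102 FPKM to 18.1 and 20.8 FPKM (4.05 on the log2 scale; limma, adjusted p = 0.000475), and the other 11 tested members had no call. The plasma cell regulator Prdm1 had a log2 difference of 0.86 (limma adjusted p = 0.214). Irf4, of the same list, went the other way, from 9.73 and 8.90 FPKM to 6.32 and 4.39 FPKM (-0.71, limma adjusted p = 0.239). Of the 13 listed genes 6 were higher with R848 in both mice. The summed level of the plasma cell list ran from 1062 to 1225 FPKM in control and from 1101 to 1214 FPKM with R848. The part of these cells in the segment values was not tested.

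Genes of recombination and of class switching gave no call. Rag1 and the surrogate light chain gene Vpreb2 were listed at 0 in all 4 samples, and none of the 7 members of the surrogate light chain and recombination list reached a mean of 1 FPKM. Rag2 was at 0.669 and 0.711 FPKM in control and at 0.456 and 0.363 with R848, and Dntt, which adds bases at the junctions, reached at most 0.18 FPKM in any sample. Of the class switch and hypermutation list, 0 of 2 tested genes passed limma, and both had an unadjusted p over 0.05: Ung was at a log2 difference of -0.28 and Apobec1 at -0.01.

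The T cell receptor loci are assembled from segments by the same enzyme and are given for comparison, with no test of the difference. Of 93 rows 27 were above 0 in at least 1 sample, against 15 of 17 immunoglobulin rows. They were above 0 in 5 and 11 rows in control and in 15 and 16 rows with R848. Of 16 tested rows 2 were called higher and 0 lower, against 1.47% and 0.381% of all tested genes. Both R848 samples were above both controls in 4 of the 27 rows above 0, against 12.8% of all rows above 0. The highest T cell receptor joining value was 46.0 FPKM. In the T cell list 3 of 7 tested genes rose (Trac, Trbc1 and Cd3g) and 0 fell, against the same shares of all tested genes. These 3 had control means of 0.290, 0.103 and 0.136 FPKM, below the filter's mean of 1 FPKM. They passed it only through R848, so their calls are no support for a difference. The summed level of the T cell list was 9.82 and 10.3 FPKM in control and 21.4 and 32.0 FPKM with R848. The NK cell list (3 tested) and the myeloid list (9 tested) had 0 calls by limma over all genes. With the mouse as a block limma called Csf1r higher (adjusted p = 0.0215) and Cd34 lower (adjusted p = 0.00187), and no NK cell gene. Without the block, at an unadjusted p under 0.05 they had 0 and 3 members, the latter being Cd34, Csf1r and Prtn3.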

How the data were processed

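RNA of 4 samples was sequenced in paired reads of 150 bases, per the labels' protocols. Since those protocols mention removal of ribosomal RNA as well as a poly(A) kit, the captured RNA is uncertain. The submitters' processing notes name kallisto and mm10, and the sources used here give neither a version nor the transcript annotation. Values are log2 FPKM as deposited, per the file headers, with 0 as the lowest, and were turned back with a pseudocount of 1. The table holds no counts, so depth is unknown and no counting interval is given.

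Of 28192 rows, 27 with date names and 91 repeats of a symbol were dropped. For the 12612 genes averaging 1 FPKM or more, R848 was tested against control on log2(FPKM + 1) by limma 3.58.1 (R 4.3.3), with a trended variance prior and Benjamini-Hochberg adjustment over all of them at 0.05, and the script was tested on simulated data with 200 changed genes. The same mouse gave a control and an R848 sample, per the labels, so the mouse pairs the samples (correlation of deviations 0.289), and blocking on the mouse was an alternative. Other alternatives were the pseudocount, the filter, the scaling, the variance prior and leaving out each sample. Sequences and coordinates came from GENCODE M21 (GRCm38); promoter windows came from RefSeq (GRCm38.p6), which matched no segment. Plots used matplotlib 3.10.9 (Python 3.11.15).

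The members and the gene lists were chosen with earlier results of these data known. The named genes are every segment with a call, every joining segment, the highest variable segments of each locus, and the members of each list with the smallest adjusted p. The other genes named for a list, and the comparison of equal-length rows, were chosen after their values were seen. Some genes of the lists are not reported here.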

Additional observations from a re-analysis of the deposited data

Results flagged for a closer look

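Igkj4 moved in opposite directions in the mice. On the log2(FPKM + 1) scale it changed by 9.58 with R848 in mouse 4050, from 0 to 765 FPKM, and by -2.04 in mouse 4182, from 38.2 to 8.50 FPKM. With 1 sample per mouse and condition the difference was not tested. No group had the 4 samples needed to look for a sample far from the others.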

How the results depend on the processing

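Of all genes tested, 233 were called, and 7 of them were segments. The counts were 88 and 2 after quantile normalization, 106 and 2 after median log ratio scaling, and 669 and 14 with the mouse as a block, which pairs the samples. Without a filter on low values both counts were 0 by limma, with 1880 genes and 11 segments at an unadjusted p under 0.05. With a robust variance prior 319 genes and 3 segments were called. Leaving out 1 sample gave 56 to 395 genes and 5 to 12 segments. The lowest gene count came without the R848 sample of mouse 4182 and the highest of both without the control of mouse 4050. The lone sample left in a group was assumed to vary like the other group. The causes were not tested. No segment changed the direction of its log2 difference under any of these settings. For the 6 segments at 0 in both controls a lower value with R848 was not possible without rescaling, so for them this is no check. Only Ighv1-73 was above 0 in both controls.

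The heavy chain variable sum, 3.12 higher on the log2(sum + 1) scale, was 3.20 higher after median log ratio scaling, and 1.82 higher without the highest segment in each sample and also without annotated pseudogenes. The latter settings both leave only Ighv13-2, at 0 in both controls. It is a member only through R848, so it had to be higher and 1.82 is no check of the sum. The kappa sum, 4.65 higher, was 4.95 higher with only segments above 1 FPKM, 4.86 without the highest segment and 4.28 without pseudogenes. In the control of mouse 4182 only Igkv1-115 was above 0 among the kappa variable segments, at 0.411 FPKM, and each of these settings removed it. The change in that mouse could then not be downward, so these settings are no check of its direction there. The effective number of variable segments and the kappa share of light chain variable segments were not run, since the members hold 2 heavy chain, 4 kappa and 0 lambda variable segments. In whole steps, an alternative added after seeing the data, the between-mouse log2 difference fell from 6.18 to 1.81 for Igkj1 and from 6.49 to 2.12 for Igkj4.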
